A study of Cricetiscus sungorus with 41 samples.

Results

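The 10 genes described here handle the iron of a cell, and they were the rows of the deposited count table with the symbols FTH1, FTL, NCOA4, TFRC, STEAP3, SLC11A2, SLC40A1, HMOX1, ACO1 and IREB2, out of 20220 human gene symbols in the table. All 10 had counts in every library and all 10 passed the filter on low counts in every comparison. Blood was taken from Djungarian hamsters, small rodents that enter spontaneous daily torpor after acclimation to a winter-like short day with 8 h of light. The samples compared were blood of hypothermic animals (HT), which were torpid on the day of sampling, with blood of normothermic animals (NT), which were acclimated to the same short day but had no torpor on that day. The 18 HT animals were sampled at ZT01 (n = 5), ZT04 (n = 5), ZT07 (n = 4) or ZT16 (n = 4), where ZT is the time in hours after lights on, and the 18 NT animals at ZT01 (n = 6), ZT04 (n = 4), ZT07 (n = 4) and ZT16 (n = 4). In the study, ZT04 is the torpor nadir. The study describes the short-day acclimation and the HT and NT groups for the 9 animals at ZT04. Both are taken here to hold for the other HT and NT animals. A further 5 animals are labelled Control, with neither a time point nor a sex in the labels, so that time, sex and torpor history cannot be told apart in any comparison with them. All animals were wild type, and each library came from 1 animal. The 9 animals at ZT04 were 32 ± 4 weeks old, and ages of the other animals are not given in the sources used here. By the labels all 4 NT animals at ZT04 and ZT16 were male, whereas the HT animals were 3 females and 2 males at ZT04 and 4 females at ZT16, so at ZT16 sex and torpor cannot be told apart.

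Iron enters red cell precursors bound to transferrin through the transferrin receptor, is reduced and moved out of the endosome, and is used in the mitochondria for haem and iron-sulphur clusters. Iron that is not used is stored in ferritin, a shell of heavy and light chains, and is released again when the receptor NCOA4 carries ferritin to the lysosome. The iron regulatory proteins ACO1 and IREB2 bind iron-responsive elements in messenger RNAs such as those of ferritin and the transferrin receptor and so set their translation or stability. In circulating blood, much of this machinery is known from reticulocytes, which still build haemoglobin, whereas the macrophages that recycle the iron of old red cells sit mainly in the spleen, liver and bone marrow.

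The libraries held 50153600 to 71662267 counts each. The defining red cell genes were present, as 85.7 to 93.8% of all counts in HT and NT libraries and 73.7 to 88.6% in Control libraries fell on haemoglobin genes, and 16 of 16 red cell membrane and erythroid genes had counts. Values are CPM, counts relative to library size, after TMM scaling, which sets the bulk of genes to the same level. The TMM factors spread widely, with 0.355 in NT ZT04 replicate 2 and 0.41 in NT ZT01 replicate 4 (93.8 and 93.0% haemoglobin) and 3.73 in Control replicate 5 (73.7% haemoglobin), and these 3 libraries stood apart from the others. The Y-linked gene UTY went against the labelled sex in HT ZT07, with 8 counts in replicate 1, labelled male, and 52 counts in replicate 2, labelled female, so values with labelled sex as a covariate rest on labels in doubt. Where totals of all counts were used in place of TMM, the median gene moved by a log2 difference between -0.06 and 0.12 at ZT01, ZT04 and ZT07 and by 0.59 at ZT16 in HT minus NT and by 0.98 in Control minus NT. A lower value of a red cell gene in bulk blood cannot be told apart from fewer reticulocytes. Since gene lengths were not used, levels are compared between groups and not between genes.

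**Figure D1:**
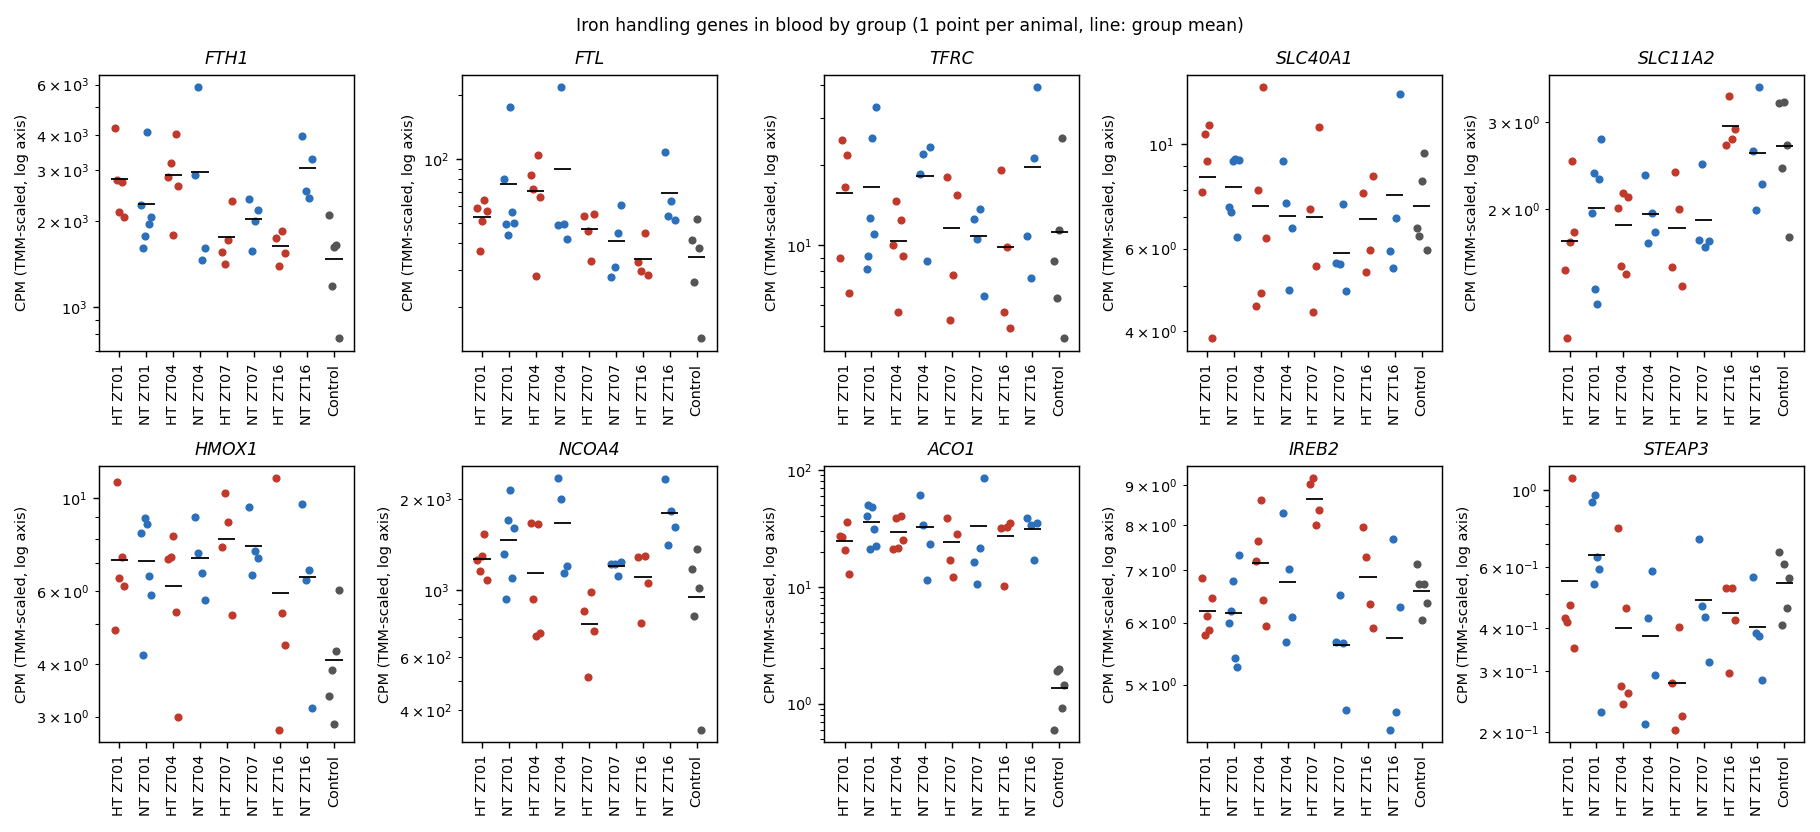
TMM-scaled CPM of the 10 iron handling genes (log axis) in every animal, with HT left of NT at each time point and Control last, and a line at the group mean. The ACO1 values of the 5 Control animals, between 0.598 and 1.99 CPM, sit below those of all 36 HT and NT animals, and the IREB2 values of the 4 HT animals at ZT07 sit above those of the 4 NT animals.

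When the 9 groups were ordered by their mean, neighbouring groups shared part of their range for each gene, except that ACO1 in Control lay below HT at ZT07. Such an order places like groups side by side, so this describes the levels and tests nothing. Among the 36 HT and NT animals the highest value exceeded the lowest by 8.25 times for ACO1, 8.02 times for TFRC, 7.86 times for FTL, 4.54 times for NCOA4 and 4.24 times for FTH1. IREB2 was the narrowest, with 2.09 times between its lowest and highest value.

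At torpor nadir (ZT04) no iron handling gene passed an adjusted p of 0.05 in edgeR, where 0.447% of the 10505 genes tested did. TFRC, the receptor that takes up transferrin-bound iron, came closest. TFRC had 10.03, 14.6, 5.61, 12.5 and 9.16 CPM in HT animals at ZT04, against 18.5, 21.9, 8.74 and 23.3 CPM in NT animals. In 3 of the 4 NT animals TFRC was above every HT animal, and the fourth NT animal lay within the HT range. The log2 difference was -0.81 ± 0.30 (SE), with an adjusted p of 0.22 in edgeR. TFRC was the only iron handling gene within the cut-offs of the study at ZT04 (p up to 0.05 before adjustment, together with a minimum fold change), which 15.2% of all genes tested met. All 10 genes overlapped between HT and NT animals at ZT04, where 7.37% of all genes did not. TFRC belongs to the target molecules that the study chose on these same 9 animals, so its direction here is not independent evidence. With labelled sex as a covariate the log2 difference of TFRC was -0.56 (adjusted p = 0.807 in edgeR), and over 9 alternatives it lay between -0.91 and -0.56.

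The sign of the FTL difference at ZT04 depended on a single NT animal. For FTH1, with a difference near 0, the sign turned in 3 of 9 fits with 1 animal left out. FTH1, the heavy chain that oxidises iron for storage, had 2844, 3190, 1785, 4021 and 2642 CPM in HT animals, against 2902, 5876, 1460 and 1603 CPM in NT animals. FTL, the light chain that aids mineral formation within the shell, had 83.8, 71.8, 28.0, 104.3 and 66.3 CPM in HT animals, against 48.9, 218.4, 49.5 and 42.1 CPM in NT animals. After TMM scaling NT replicate 2, which stood apart by its haemoglobin share, was the highest of the 9 animals for both chains. On that scale FTL in the other NT animals lay below 4 of the 5 HT animals. On total counts NT replicate 2 was still the highest for FTL, with 77.5 CPM. Its FTH1 was 2085 CPM on total counts, within the HT range of 2074 to 2611 CPM. The log2 difference at ZT04 was -0.03 ± 0.44 (SE) for FTH1 and -0.33 ± 0.48 (SE) for FTL (adjusted p = 0.984 and 0.816 in edgeR). Without NT replicate 2 the differences were 0.53 for FTH1 and 0.59 for FTL (adjusted p = 0.503 and 0.438 in edgeR). NCOA4 had 1666, 935.6, 706.9, 1662 and 723.9 CPM in HT animals, against 2348, 2009, 1138 and 1206 CPM in NT animals, a log2 difference of -0.56 ± 0.38 (SE, adjusted p = 0.534 in edgeR) with overlapping groups. The log2 differences of ACO1, HMOX1, SLC40A1, SLC11A2, IREB2 and STEAP3 at ZT04 lay between -0.23 and 0.06.

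Torpor entry (ZT01) gave no call for any of the 10 genes, and 0% of 10509 genes passed, with 807 genes at an unadjusted p under 0.05 and 12 genes called by DESeq2. None of the 10 genes met the cut-offs of the study at ZT01, which 7.24% of all genes did, and all 10 overlapped between HT and NT, as did all but 0.809% of genes. The largest differences in size were those of ACO1 (-0.53 ± 0.27, SE) and FTL (-0.50 ± 0.31, SE), with adjusted p = 0.666 and 0.705 in edgeR. FTL was -0.08 without NT ZT01 replicate 4, the animal with 176.1 CPM, where the other 5 NT animals had 43.8 to 80.5 CPM and the 5 HT animals 36.7 to 63.7 CPM. The ratio of FTH1 to FTL counts within a library, which no scaling can alter, was higher in HT at ZT01, with a mean log2 ratio of 5.68 ± 0.49 in 5 HT animals and 5.03 ± 0.32 in 6 NT animals (SD, two-sided exact permutation test p = 0.0216, adjusted over 4 time points p = 0.0866). The HT animals spanned 5.17 to 6.24 and the NT animals 4.53 to 5.38. At the later time points the difference was 0.23 (ZT04), -0.45 (ZT07) and 0.10 (ZT16), after 0.65 at ZT01, and none passed after adjustment. Over all 41 libraries 23.2 to 86.0 FTH1 counts fell on each FTL count.

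During arousal (ZT07) IREB2, the iron regulatory protein 2 that is degraded when iron is plentiful, was higher in HT animals. IREB2 had 9.02, 9.17, 7.997 and 8.35 CPM in HT animals at ZT07, against 5.67, 6.51, 5.66 and 4.64 CPM in NT animals. All 4 HT animals lay above all 4 NT animals. The log2 difference was 0.60 ± 0.14 (SE), with an adjusted p of 0.0246 in edgeR. IREB2 was thereby 1 of 10 iron handling genes called at ZT07, a share close to the background of 10.4% of 10787 genes, which is no result about the group of genes. The call held in 3 of 8 fits with 1 animal left out, with log2 differences between 0.51 and 0.68 and adjusted p between 0.0317 and 0.0693 in edgeR, and it was lost without HT ZT07 replicate 1, 2 or 4 and without NT ZT07 replicate 1 or 3. On total counts IREB2 differed by 0.74, of which 0.12 was the shift of the median gene, and the adjusted p was 0.147 in edgeR. Relative to the summed counts of the 16 red cell genes in the same library, IREB2 differed by 0.91 on the log2 scale at ZT07, again without overlap. At ZT07, 15 of these 16 genes lay below 0 (median -0.37), and IREB2 did not rise with them between animals (r = -0.427). This scale therefore adds their difference to that of IREB2 and gives no separate support. On it SLC40A1 (0.47) was without overlap at ZT07 as well. The share of all genes without overlap on this scale is not given here, so these separations are no result about the 10 genes. The difference in the torpor effect between ZT04 and ZT07 was -0.52 ± 0.22 (SE, adjusted p = 0.694 in edgeR), so the higher level at ZT07 was not shown to differ from that at ZT04.

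NCOA4, the cargo receptor for ferritin, lay lower in HT animals at ZT07 in every animal without passing the test. NCOA4 had 852.5, 517.2, 986.5 and 732.4 CPM in HT animals, against 1224, 1221, 1113 and 1242 CPM in NT animals. The groups did not overlap, and the log2 difference was -0.65 ± 0.20 (SE, adjusted p = 0.0566 in edgeR, 0.0169 in DESeq2). Without HT ZT07 replicate 3 NCOA4 was called (-0.79, adjusted p = 0.0372 in edgeR). Groups without overlap were found for 2 of the 10 genes, IREB2 and NCOA4, and for 19.1% of all genes at ZT07. The cut-offs of the study took in the same 2 genes and 27.2% of all genes, and DESeq2 called both and 15.4% of all genes. The summed red cell genes were 20560.3 to 38735 CPM in HT animals and 33321 to 41094 CPM in NT animals at ZT07 with haemoglobin left out. Relative to them NCOA4 differed by -0.39 on the log2 scale, with overlapping groups. STEAP3, the ferrireductase of the endosome, had 0.277, 0.203, 0.401 and 0.223 CPM in HT animals, against 0.72, 0.463, 0.428 and 0.318 CPM in NT animals. These levels rest on few reads, as STEAP3 had 8 to 54 counts in the HT and NT libraries, and the log2 difference of -0.83 ± 0.40 (SE) did not pass (adjusted p = 0.204 in edgeR). FTH1, FTL, TFRC, SLC40A1, SLC11A2 and HMOX1 differed by -0.23 to 0.24 at ZT07 with overlapping groups, and ACO1 by -0.48 ± 0.57 (SE).

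**Figure D2:**
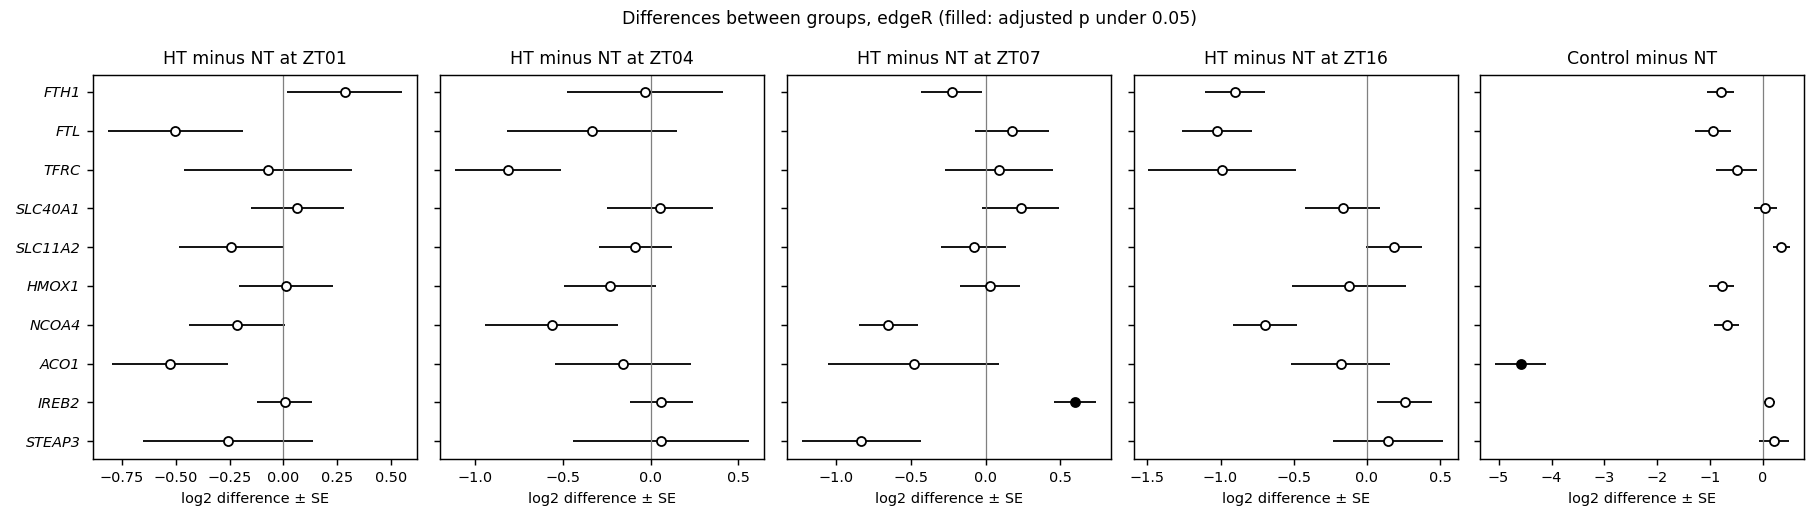
Log2 differences ± SE of the 10 genes in HT minus NT at each time point and in Control minus NT, from edgeR, with filled points for an adjusted p under 0.05 and a separate horizontal scale in each panel. The filled points are IREB2 at ZT07 (0.60) and ACO1 in Control (-4.58), and FTH1, FTL and NCOA4 lie left of 0 both at ZT16 and in Control.

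At ZT16 both ferritin chains and NCOA4 lay lower in HT animals than in NT animals. ZT16 comes after arousal, in the dark phase, and was treated here as a time after torpor. FTH1 had 1735, 1387, 1841 and 1543 CPM in HT animals, against 3951, 2537, 2406 and 3300 CPM in NT animals. FTL had 32.4, 29.7, 44.7 and 28.2 CPM in HT animals, against 107.8, 53.6, 63.0 and 51.4 CPM in NT animals. NCOA4 had 1292, 781.3, 1300.4 and 1055 CPM in HT animals, against 2340, 1412, 1832 and 1626 CPM in NT animals. In each of the 3 genes all 4 HT animals lay below all 4 NT animals, which was so, in either direction, for 4.04% of the 10705 genes tested. The log2 differences were -0.90 ± 0.20 for FTH1, -1.02 ± 0.24 for FTL and -0.70 ± 0.22 for NCOA4 (SE). None passed after adjustment in edgeR (adjusted p = 0.472, 0.472 and 0.527), where 0.0187% of genes did. The same 3 genes met the cut-offs of the study, as did 6.95% of all genes, and DESeq2 called the same 3 genes and 0.934% of all genes. TFRC had 19.2, 5.65, 9.83 and 4.89 CPM in HT animals, against 10.9, 7.57, 21.2 and 39.2 CPM in NT animals, and these groups overlapped (log2 difference -0.99 ± 0.50, SE, adjusted p = 0.733 in edgeR).

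The red cell genes also lay lower in HT animals at ZT16, without passing the test. The summed red cell genes were 22918 to 42484.5 CPM in HT animals and 36546 to 64020 CPM in NT animals with haemoglobin left out (two-sided exact permutation test p = 0.0571, adjusted p = 0.838 over all marker lists and times), and 16 of 16 red cell genes were below 0 in log2 difference with a median of -0.69. Most of the 16 red cell genes were below 0 at the other times too, 13 at ZT01 (median -0.27), 14 at ZT04 (-0.32) and 15 at ZT07 (-0.37). The haemoglobin share was 86.4 to 88.8% in HT animals and 88.0 to 90.5% in NT animals at ZT16. Relative to the summed counts of the red cell genes in the same library, FTH1 differed by -0.11, FTL by -0.21 and NCOA4 by 0.07 on the log2 scale, each with overlapping groups. On this scale SLC40A1, SLC11A2, HMOX1, ACO1 and IREB2 differed by 0.51 to 1.07 and TFRC by -0.15, also with overlapping groups. STEAP3, with few reads, differed by 0.90 without overlap, and the share of all genes without overlap on this scale is not given here. On total counts the differences were -0.31 for FTH1, -0.39 for FTL and -0.12 for NCOA4, which is -0.89, -0.98 and -0.70 relative to the median gene. On total counts SLC11A2 (0.78) and IREB2 (0.81) were called in edgeR at ZT16, as were 30.9% of all genes, against a shift of the median gene of 0.59. The difference in the torpor effect between ZT04 and ZT16 was 0.89 ± 0.44 for FTH1 (SE, adjusted p = 0.426 in edgeR), and 0.331% of 11471 genes passed that test. None of the 10 genes passed any of the 3 tests of a difference between time points. In those against ZT01 and ZT07, 0% of genes passed in edgeR, with 863 and 760 genes at an unadjusted p under 0.05 and 8 and 3 genes called by DESeq2.

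**Figure D3:**
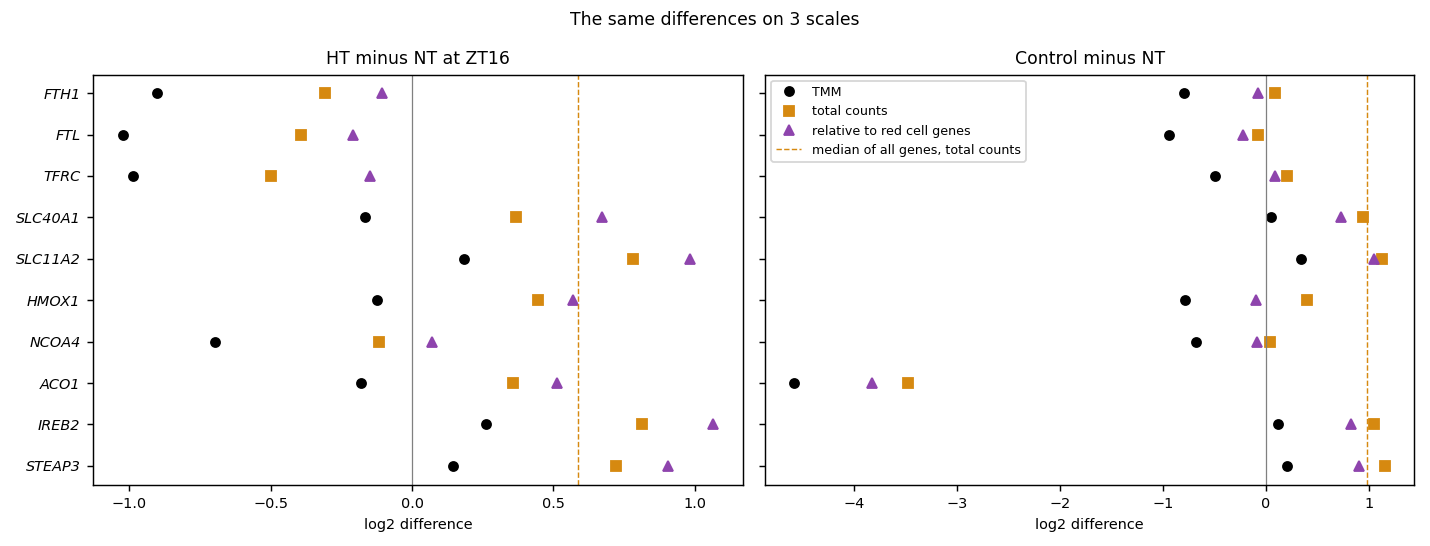
Log2 differences of the 10 genes in HT minus NT at ZT16 (left) and in Control minus NT (right) after TMM scaling, on total counts, and relative to the summed red cell genes of the same library, with the shift of the median gene on total counts as a dashed line (0.59 and 0.98). FTH1, FTL and NCOA4 lie below 0 after TMM scaling and near 0 relative to the red cell genes, and ACO1 in Control lies at or below -3.48 on each of the 3 scales.

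Within the HT animals the time point changed 2 of the 10 genes, and 9.85% of 11130 genes passed the same test. FTH1 ranged over 0.83 on the log2 scale between the highest and the lowest of the 4 time points, with means of 2792 ± 871 at ZT01, 2896 ± 814 at ZT04, 1759 ± 414 at ZT07 and 1626 ± 202 CPM at ZT16 (SD, n = 5, 5, 4 and 4, adjusted p = 0.0344 in edgeR). SLC11A2, which moves iron out of the endosome, ranged over 0.77, with means of 1.72 ± 0.51 at ZT01, 1.86 ± 0.33 at ZT04, 1.83 ± 0.45 at ZT07 and 2.94 ± 0.31 CPM at ZT16 (SD, adjusted p = 0.0449 in edgeR). FTH1 was thus highest at entry and nadir, and SLC11A2 at ZT16. SLC11A2 was also highest at ZT16 in NT animals, with a mean of 2.60 CPM, against 2.01, 1.96 and 1.90 CPM at ZT01, ZT04 and ZT07. Its torpor effect was not shown to differ between ZT04 and ZT16 (-0.26 ± 0.33, SE, adjusted p = 0.821 in edgeR). By the labels the HT animals at ZT16 were all female and those at the other times of both sexes, so time and sex are mixed here. Neither call over time in HT was firm. The FTH1 call held in 10 of 18 fits with 1 animal left out and was lost without HT ZT04 replicate 2, HT ZT07 replicates 1 to 3 or any of the 4 HT animals at ZT16 (adjusted p up to 0.077 in edgeR). The SLC11A2 call held in 5 of 18 fits, those without HT ZT01 replicate 2 or 4, HT ZT04 replicate 3 or 5 or HT ZT07 replicate 2 (adjusted p up to 0.17 in edgeR without HT ZT16 replicate 2). On total counts FTH1 ranged over 0.20 (adjusted p = 0.494 in edgeR), and with labelled sex as a covariate neither gene was called. FTL ranged over 1.07 (adjusted p = 0.0593 in edgeR) and was called without HT ZT04 replicate 3 (1.27, adjusted p = 0.00416 in edgeR). DESeq2 called FTH1, FTL, SLC11A2 and IREB2 and 17.2% of all genes. Within the NT animals no iron handling gene changed with time, and 0% of 11111 genes did, with 448 genes at an unadjusted p under 0.05 and 6 genes called by DESeq2.

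In the Control animals the values under the symbol ACO1 stood apart from those of all other animals. The symbol names the cytosolic aconitase that becomes iron regulatory protein 1 when it loses its iron-sulphur cluster. Whether the contigs counted under it come from that hamster gene was not tested here. ACO1 had 0.598, 1.92, 1.99, 0.91 and 1.45 CPM in Control animals, against 10.5 to 84.4 CPM with a median of 32.4 CPM in 18 NT animals and 10.2 to 40.5 CPM with a median of 26.9 CPM in 18 HT animals. As deposited, these were 45 to 300 counts in Control libraries and 632 to 4507 counts in HT and NT libraries, so no Control animal overlapped with any other. The log2 difference of Control minus NT was -4.58 ± 0.48 (SE, adjusted p = 2.99e-09 in edgeR), and it lay between -4.74 and -4.32 with any 1 animal left out. ACO1 was the only 1 of the 10 genes called, with 2.15% of 11636 genes called and 1.59% without overlap between Control and NT animals. On total counts it differed by -3.48, and relative to the red cell genes by -3.83.

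The genes whose levels ran most closely with ACO1 over the 36 HT and NT animals were ATP7B, a copper-transporting ATPase (Pearson r = 0.991 of log2 CPM with haemoglobin left out), HAO1, a peroxisomal glycolate oxidase (r = 0.990), and ACSM5, a mitochondrial acyl-CoA synthetase (r = 0.989), among 9865 genes compared. These 3 rows were at 0 to 0.221, 0 to 0.217 and 0 to 0.0492 CPM in Control animals, against 6.81 to 67.2, 7.62 to 86.6 and 3.98 to 44.4 CPM in HT and NT animals. No other iron handling gene had a partner this close, the next being R3HDM4 for FTH1 at 0.913. IREB2, the other iron regulatory protein, had Control values of 6.05 to 7.12 CPM, within the NT range of 4.38 to 8.29 CPM. In the study each assembled contig took the symbol of its best human protein match, from a bitscore of 50. How contigs with the same symbol were combined is not given in the sources used here, and the species and sequence of the contigs counted under ACO1, ATP7B, HAO1 and ACSM5 were not tested here.

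**Figure D4:**
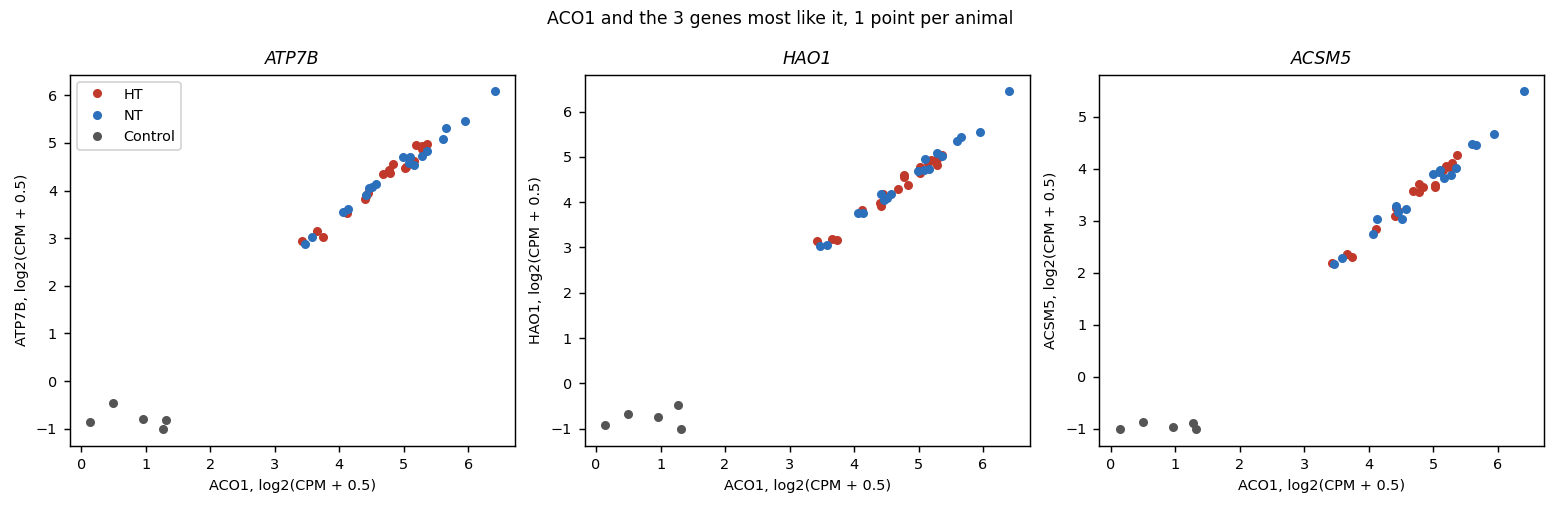
ACO1 against ATP7B, HAO1 and ACSM5 in every animal, as log2(CPM + 0.5), with HT, NT and Control animals in different colours. The 36 HT and NT animals fall along a line in each panel (r = 0.991, 0.990 and 0.989 with haemoglobin left out of the scaling), and the 5 Control animals sit at the low end of both axes.

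The other genes differed less between Control and NT animals. FTH1 had 2096, 1182, 1623, 1644 and 774.2 CPM in Control animals, against 1460 to 5876 CPM with a median of 2219.9 CPM in NT animals. The log2 differences were -0.80 ± 0.26 for FTH1, -0.94 ± 0.33 for FTL, -0.68 ± 0.24 for NCOA4 and -0.78 ± 0.24 for HMOX1, the enzyme that frees iron from haem (SE). All 4 groups of values overlapped, and the adjusted p was 0.12, 0.19, 0.181 and 0.101 in edgeR. Without Control replicate 5, the library with the lowest haemoglobin share, the differences were -0.62, -0.73, -0.46 and -0.96 (adjusted p = 0.501, 0.62, 0.661 and 0.0509 in edgeR). Without NT ZT16 replicate 4 HMOX1 was called (-0.84, adjusted p = 0.0456 in edgeR). DESeq2 called FTH1 and HMOX1 beside ACO1, with 2.86% of all genes called. The summed red cell genes were 12396 to 44938 CPM in Control animals, and relative to them FTH1 differed by -0.08, FTL by -0.22, NCOA4 by -0.08 and HMOX1 by -0.10. HMOX1 had a correlation of only r = 0.108 with the red cell genes over the HT and NT animals. A value near 0 on this scale thus does not place HMOX1 with them. On the same scale SLC11A2 differed by 1.05, STEAP3 by 0.90, IREB2 by 0.83, SLC40A1 by 0.73 and TFRC by 0.09, all with overlapping groups. On total counts 79.9% of all genes were called, against a shift of the median gene of 0.98, and relative to that shift FTH1, FTL, NCOA4 and HMOX1 differed by -0.89, -1.05, -0.94 and -0.58. The exporter SLC40A1 (ferroportin) differed by 0.04 ± 0.21 and TFRC by -0.50 ± 0.38 (SE).

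Several of the genes followed the red cell genes from animal to animal. Over the 36 HT and NT animals the correlation of log2 CPM with the summed red cell genes, with haemoglobin left out of both, was r = 0.810 for NCOA4 (Spearman rho = 0.783), r = 0.806 for FTH1 (rho = 0.789), r = 0.747 for TFRC (rho = 0.760), r = 0.700 for FTL (rho = 0.577) and r = 0.590 for SLC40A1 (rho = 0.617). The permutation p was 1e-05, the smallest that 100000 resamples can give, for r of the first 4 genes and 0.00015 for SLC40A1, unadjusted over the 10 relations computed. Without the 2 animals farthest from the median of the red cell sum, NT ZT01 replicate 4 and NT ZT04 replicate 2, r was 0.787 for NCOA4, 0.744 for FTH1, 0.732 for TFRC, 0.566 for FTL and 0.633 for SLC40A1. Within the 18 HT animals r was 0.770, 0.817, 0.745, 0.696 and 0.662 for the same genes in that order, and within the 18 NT animals 0.826, 0.831, 0.703, 0.695 and 0.581. IREB2 ran the other way (r = -0.427, rho = -0.357, permutation p = 0.00974 for r), with r = -0.353 without those 2 animals, -0.430 within HT and -0.246 within NT. ACO1 had r = 0.396 (rho = 0.352, permutation p = 0.016), with 0.358 without those 2 animals, 0.619 within HT and 0.171 within NT. Adjusted over the 10 relations, the permutation p of IREB2 was 0.0162 for r and 0.0521 for rho, and that of ACO1 0.0229 and 0.0521. For SLC11A2, HMOX1 and STEAP3 r was -0.311, 0.108 and 0.293 (permutation p = 0.0646, 0.528 and 0.0838). Both axes share the scaling of the library, so these values describe what moves together in a library.

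**Figure D5:**
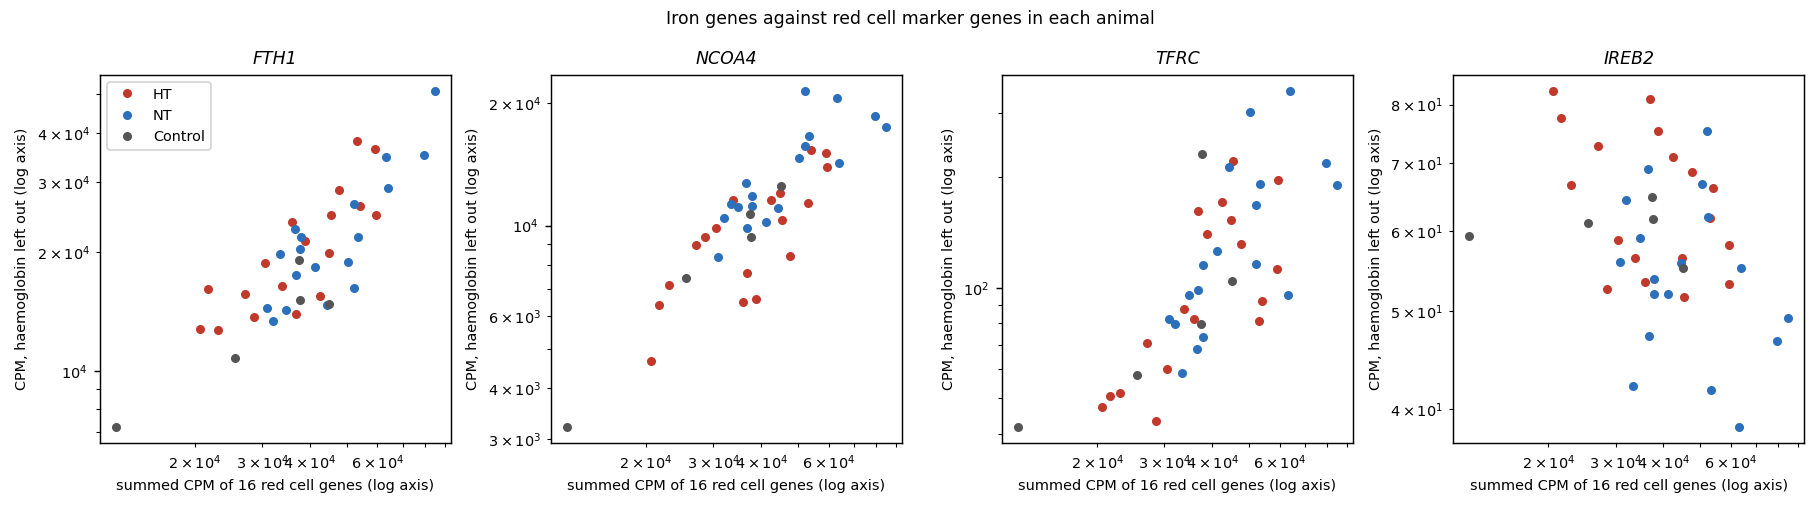
CPM of FTH1, NCOA4, TFRC and IREB2 against the summed CPM of 16 red cell genes in every animal, both on log axes and with haemoglobin left out, with HT, NT and Control animals in different colours. FTH1, NCOA4 and TFRC climb with the red cell genes (r = 0.806, 0.810 and 0.747 over 36 HT and NT animals), while IREB2 declines (r = -0.427).

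The genes whose levels ran most closely with each of the other genes were found in the same way over the 36 animals, as a description without a test. FTH1 was most like R3HDM4 (r = 0.913), the vacuolar proton pump subunit ATP6V1G1 (0.911) and ALAS2, the first enzyme of haem synthesis in red cells (0.910). FTL was most like ISCA1, an iron-sulphur cluster assembly factor (0.891), and the ribosomal protein RPL24 (0.860). NCOA4 was most like the protease CAPN1 (0.912), IFIT1B (0.890) and the autophagy receptor TAX1BP1 (0.886), and TFRC like the acyl-CoA synthetase ACSL1 (0.910), UBE2B (0.865) and SLC25A51 (0.856). SLC40A1 was most like TFRC (0.672), SLC25A51 (0.664) and FBXO9 (0.656), and STEAP3 like the red cell genes TRIM58 (0.621) and GYPC (0.619). The closest genes were UTRN (0.730), BIRC6 (0.705) and RC3H1 (0.699) for SLC11A2, S1PR5 (0.660), TNFRSF1B (0.645) and SEC24A (0.632) for HMOX1, and PAPOLG (0.788), EXOC5 (0.778) and TENT2 (0.777) for IREB2. Among the 10 genes the closest pair was FTH1 with FTL (0.755).

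Of 88 further genes of iron and haem handling, 66 to 72 were tested in each comparison. At ZT07, 4 of 69 tested rose in HT animals and none fell, a smaller share than the 10.4% of all genes called there, which is no result about iron and haem genes as a group. At ZT01, ZT04 and ZT16 none passed. FBXL5, the iron sensor that marks IREB2 protein for degradation, had 10.1, 12.2, 11.8 and 9.43 CPM in HT animals, against 8.33, 7.38, 7.39 and 5.11 CPM in NT animals at ZT07. FLVCR1, a transporter described for haem export, had 5.70, 4.80, 5.31 and 3.37 CPM in HT animals, against 3.31, 2.26, 2.41 and 1.70 CPM in NT animals. In both genes every HT animal lay above every NT animal, and the log2 differences were 0.61 ± 0.17 and 0.96 ± 0.22 (SE, adjusted p = 0.0457 and 0.0226 in edgeR). SLC25A28 (mitoferrin 2, which brings iron into mitochondria) and SFXN1 (a mitochondrial serine carrier) rose by 0.74 ± 0.19 and 0.68 ± 0.19 (SE, adjusted p = 0.0337 and 0.0463 in edgeR). Within the HT animals 5 of 71 tested changed with time, where 9.85% of all genes did. These were FBXL5, SLC25A28 and SFXN1, with IBA57, an iron-sulphur cluster assembly factor, and HERC2, a ubiquitin ligase that acts on FBXL5 and NCOA4 (adjusted p = 0.0437, 0.0121, 0.00547, 0.0227 and 0.0181 in edgeR, log2 ranges of 0.54, 0.89, 0.79, 0.80 and 0.57).

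Genes of the other lists at torpor nadir are given by the lowest p in each list, none of which passed after adjustment. IBA57 (0.999 ± 0.257, SE) and SLC25A28 (0.65 ± 0.19, SE) lay higher in HT animals at ZT04, with adjusted p = 0.0918 and 0.134 in edgeR. For haem synthesis these were ALAD (-0.90 ± 0.29, SE), which forms porphobilinogen, and TMEM14C (-0.69 ± 0.27, SE), which helps porphyrin precursors into mitochondria, with adjusted p = 0.156 and 0.256 in edgeR. For uptake, reduction and export these were MON1A (-0.91) and the reductase CYBRD1 (-0.65), for sensing FBXL5 (0.44) and HERC2 (0.23), for cytosolic cluster assembly and chaperones NUBP2 (-0.22) and CIAPIN1 (-0.16), and for haem breakdown and transport the biliverdin reductase BLVRA (-0.70) and the receptor LRP1 (0.46), with adjusted p between 0.294 and 0.768 in edgeR. Of the 8 transcripts listed for iron-responsive elements, which take in FTH1, FTL, TFRC, SLC40A1 and SLC11A2, 7 lay below 0 at ZT16. Their median log2 difference was -0.56, beside 0.01 over all genes and -0.69 over the 16 red cell genes, and none passed the test. At the other times 4 lay below 0 at ZT01 (median 0.03), 6 at ZT04 (-0.14) and 4 at ZT07 (-0.03). Of the 12 haem synthesis genes, 9 lay below 0 at ZT16 with a median of -0.23. The other times were alike, with 8 below 0 at ZT01 (median -0.25), 9 at ZT04 (-0.29) and 10 at ZT07 (-0.29).

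Between Control and NT animals 6 of 72 further iron and haem genes tested passed, all of them lower in Control, where 2.15% of all genes passed and 235 of those 250 genes were lower. Of the 6 genes, 5 are named here, after their values were seen. These were ABCB6 (log2 difference -4.48 ± 0.49), ISCA2 (-2.78 ± 0.41), ABCB8 (-2.52 ± 0.37), ABCB10 (-2.31 ± 0.35) and HSPA9 (-0.70 ± 0.18) (SE, adjusted p between 6.79e-09 and 0.0221 in edgeR). The 3 named ABCB genes encode ABC transporters of mitochondria or vesicles, ISCA2 an iron-sulphur cluster assembly factor and HSPA9 a mitochondrial Hsp70 chaperone. ABCB6 had 1.06 to 1.75 CPM in Control animals and 10.4 to 89.0 CPM in NT animals, without overlap, as for ACO1. The contigs counted under these symbols were not tested here either.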

How the data were processed

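RNA of whole-blood pellets from 41 hamsters was sequenced by the study. Per its methods, the authors trimmed reads with trimmomatic 0.39, assembled a transcriptome de novo from all samples with trinity 2.8.6, gave each contig the human symbol of its best protein match (bitscore from 50), aligned reads with HISAT2 and counted them with their own scripts. The deposited values are raw counts per symbol, and 67.4% of counts between 1 and 49 are even. No 2 libraries agreed within sampling noise (lowest chi-square per degree of freedom 8.84 over 820 pairs).

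Counts were tested with edgeR 4.0.16 in R 4.3.3 (TMM, filterByExpr with a minimum count of 10 and total of 15, quasi-likelihood test, Benjamini-Hochberg over all genes tested, threshold 0.05): HT minus NT at each time point, time within HT and within NT, differences of the torpor effect between time points over 36 animals, and Control minus the mean of the 4 NT groups. The edgeR step was tested on simulated data. The study used DESeq2, which was an alternative here (version 1.42.0). Other alternatives were RLE scaling, no filter, no haemoglobin genes, a replicate block, labelled sex, 36 animals in 1 fit, the study's cut-offs, each animal left out, and total counts without TMM, which was chosen after seeing the data. Ratios and marker sums used exact permutation tests, with a pseudocount of 0.5.

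The genes and lists were chosen with earlier results of these data known. Named were the 10 genes, further iron genes called in any HT minus NT comparison, the 2 with the lowest p at ZT04 in each list, and the 3 most correlated genes (mean of at least 1 CPM, counts in all 36 animals) of each of the 10. Some genes that met these rules are not reported here. STEAP3 was kept in that comparison because its mean was above 1 CPM with haemoglobin left out. P-values measure the spread between animals. Counting error adds to it most for STEAP3 and SLC11A2, which had the fewest counts.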

Additional observations from a re-analysis of the deposited data

Results flagged for a closer look

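In 90 combinations of a gene and a group, 8 had an animal far from the others of its group, and chance alone gives about 1 in 20 such groups. After TMM scaling NT ZT01 replicate 4 was high in both ferritin chains. It had 4083 CPM for FTH1, where the other 5 animals had 1601 to 2263 CPM, and 176.1 CPM for FTL, where the others had 43.8 to 80.5 CPM. NT ZT04 replicate 2 had 218.4 CPM for FTL, with 42.1 to 49.5 CPM in the other 3 animals. These are the 2 libraries with TMM factors of 0.41 and 0.355, and what set them apart was not tested. On total counts FTH1 in NT ZT01 replicate 4 was 1673 CPM, within the 1523 to 1965 CPM of the other 5 animals. Its FTL was still the highest on total counts, with 72.2 CPM against 37.6 to 67.3 CPM. FTL in NT ZT04 replicate 2 was also still the highest of its group on total counts, with 77.5 CPM against 36.4 to 59.9 CPM. In NT ZT07, replicate 4 had 84.4 CPM for ACO1 (others 10.5 to 21.5 CPM), replicate 2 had 2.47 CPM for SLC11A2 (others 1.68 to 1.73 CPM) and replicate 3 was low in NCOA4 at 1113 CPM (others 1221 to 1242 CPM). In HT animals, ZT16 replicate 2 was low in ACO1 at 10.2 CPM (others 32.0 to 35.1 CPM), and ZT01 replicate 4 had 1.08 CPM for STEAP3 (others 0.350 to 0.464 CPM).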

How the results depend on the processing

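Counts of calls moved with the cut-offs, the test, the scaling and the animals in the fit. At an adjusted p of 0.05 edgeR called 0, 47, 1119 and 2 of all genes at ZT01, ZT04, ZT07 and ZT16. DESeq2 called 12, 487 and 100 genes at ZT01, ZT04 and ZT16, total counts 2, 5, 310 and 3306 at the 4 times, the study's cut-offs 761, 1593, 2931 and 744, and 36 animals in 1 fit 557 at ZT04 and 0 at ZT16, or 3, 480 and 1 at ZT01, ZT04 and ZT16 with sex. Sex as a covariate gave 1 gene at ZT04 and could not be fitted at ZT16, where all HT animals were female and all NT animals male. With 1 animal left out, 2 (without NT ZT04 replicate 4) to 34 genes were called at ZT04, 410 to 968 at ZT07 and 2 to 4 at ZT16. Higher and lower calls numbered 617 and 502 at ZT07, 1 and 1 at ZT16 and 15 and 235 in Control after TMM, against 229 and 81, 3297 and 9, and 9116 and 180 on total counts, and 1 and 99 in DESeq2 at ZT16.

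Of the 10 iron handling genes, DESeq2 called 2 at ZT07, 3 at ZT16, 4 over time in HT and 3 in Control. Total counts called 0 at ZT07, 2 at ZT16 and 5 in Control and, over time in HT, 3 (IREB2, NCOA4 and SLC11A2). The study's cut-offs took in 1 at ZT04, 2 at ZT07 and 3 at ZT16. Over time in HT, 1 was called with no filter and 0 with sex. With 1 animal left out, 0 to 2 were called at ZT07, 0 to 3 over time in HT and 1 to 2 in Control.

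The labels name no pairing of animals by replicate number, and the correlations computed here do not decide whether there was one. Deviations of same-numbered HT and NT animals correlated between -0.02 and 0.26 at ZT01, -0.12 and 0.40 at ZT04, -0.10 and 0.25 at ZT07 and -0.23 and 0.19 at ZT16, with the best match on the own number in 2 of 5, 3 of 4, 2 of 4 and 1 of 4 animals. With the replicate block 1, 5, 970 and 2 of all genes were called at the 4 times, and of the iron handling genes 0, 0, 1 (IREB2) and 0, with 1 over time in HT (FTH1) and 1 in Control (ACO1).

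The differences whose signs turned had passed no test in edgeR with all animals after TMM scaling. FTH1 and HMOX1 in Control were called by DESeq2, and HMOX1 also without NT ZT16 replicate 4. SLC40A1 in Control was called on total counts (0.94, adjusted p = 0.00126 in edgeR), as were 79.9% of all genes. With the replicate block the differences that turned were TFRC (0.20) and HMOX1 (-0.053) at ZT01, FTH1 (0.16) and ACO1 (0.11) at ZT04 and TFRC (-0.035) at ZT07. With sex they were HMOX1 (-0.10) at ZT01 and FTH1 (0.034) and SLC40A1 (-0.17) at ZT04. With 36 animals and sex in 1 fit they were FTH1 (0.014) and SLC11A2 (0.045) at ZT04 and ACO1 (0.046) at ZT16. On total counts they were FTH1 (0.21), SLC40A1 (-0.040) and STEAP3 (-0.12) at ZT04, SLC11A2 (0.085) at ZT07, SLC40A1 (0.37), HMOX1 (0.44) and ACO1 (0.36) at ZT16, and FTH1 (0.087), TFRC (0.20), HMOX1 (0.40) and NCOA4 (0.039) in Control. With 1 animal left out, ranges that crossed 0 were at ZT01 TFRC -0.29 to 0.27, SLC40A1 -0.041 to 0.25, HMOX1 -0.19 to 0.12 and IREB2 -0.037 to 0.075. At ZT04 they were FTH1 -0.25 to 0.53, FTL -0.56 to 0.59, SLC40A1 -0.25 to 0.23, SLC11A2 -0.14 to 0.031, ACO1 -0.44 to 0.38, IREB2 -0.010 to 0.19 and STEAP3 -0.32 to 0.40. At ZT07 they were TFRC -0.19 to 0.34, SLC40A1 -0.056 to 0.42, SLC11A2 -0.22 to 0.078, HMOX1 -0.10 to 0.19 and ACO1 -0.82 to 0.56. At ZT16 they were SLC40A1 -0.30 to 0.18, HMOX1 -0.63 to 0.13, ACO1 -0.38 to 0.10 and the FTH1 to FTL ratio -0.0032 to 0.27, and in Control SLC40A1 -0.066 to 0.13. The causes were not tested. STEAP3, with 8 to 54 counts per HT or NT library, and SLC11A2, with 28 to 298, are limited by depth.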
